A study of Mus musculus with 16 samples.

Results

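The 6 genes described here encode proteins of megakaryocytes and platelets, and all 6 were found by symbol among the 14829 genes of the count table. They are Itga2b and Itgb3, the subunits of the platelet fibrinogen receptor, Gp1bb and Gp9, subunits of the receptor for von Willebrand factor, Pf4, a chemokine stored in platelet granules, and Plek, a target of protein kinase C in platelets. Their transcripts were counted in hematopoietic stem cells, from which all blood cells descend, of 4 old and 4 young mice. Marrow taken straight from each mouse was held for 1 h at 37 °C with dmPGE2, a dimethyl derivative of the lipid mediator prostaglandin E2, or vehicle, and stem cells were then sorted and their RNA extracted. The material of each mouse was split, which gave 4 groups of 4 libraries: old dmPGE2, old vehicle, young dmPGE2 and young vehicle. Mice 485 and 486 (old) and 483 and 484 (young) carry the later of 2 consecutive dates (date 2), and mice 479 and 480 (old) and 477 and 478 (young) the earlier one (date 1). For the step done on these dates, the sort gate, and the strain, sex and age in months of the mice, the sources used here give nothing.

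Platelets are shed by megakaryocytes, which arise from stem cells through shared progenitors or along a more direct path. In mice, some stem cells already carry RNA of platelet genes such as Vwf, and these are biased towards making platelets. That share of the stem cell pool is known to grow with age, so the study's comparison of old with young stem cells bears on the level of platelet genes, and its dmPGE2 arm on whether a short pulse alters it.

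Upstream of their start sites, genes of this lineage are often bound by GATA and ETS factors, such as GATA1 and FLI1. The GATA words searched were AGATAA and also its variant AGATAG, together with TGATAA and also its variant TGATAG. The ETS words were AGGAAG and also its variant CGGAAG. Both strands of the 250 bases before the start were searched, and no match of one kind overlapped one of the other. RefSeq windows on GRCm38.p6 were found for Itga2b, Gp1bb, Gp9, Pf4 and Plek. A GATA word was in 26.5% of all 32851 windows of that length and an ETS word in 39.2%. The windows of 4 genes with different age patterns are shown 5′ to 3′ on the strand of the gene, with the matched words (on either strand) in capitals.
Itga2b, chr11:102469884-102470133, minus strand: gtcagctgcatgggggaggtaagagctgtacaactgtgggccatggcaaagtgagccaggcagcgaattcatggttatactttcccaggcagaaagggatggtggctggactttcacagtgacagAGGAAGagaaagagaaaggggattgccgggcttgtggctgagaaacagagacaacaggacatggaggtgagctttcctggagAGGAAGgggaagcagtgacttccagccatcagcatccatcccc
Gp1bb, chr16:18622404-18622653, minus strand: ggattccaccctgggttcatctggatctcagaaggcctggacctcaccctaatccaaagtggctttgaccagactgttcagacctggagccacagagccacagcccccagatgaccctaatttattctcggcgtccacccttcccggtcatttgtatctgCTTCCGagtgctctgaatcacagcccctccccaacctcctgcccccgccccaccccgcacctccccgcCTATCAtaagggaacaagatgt
Pf4, chr5:90772185-90772434, plus strand: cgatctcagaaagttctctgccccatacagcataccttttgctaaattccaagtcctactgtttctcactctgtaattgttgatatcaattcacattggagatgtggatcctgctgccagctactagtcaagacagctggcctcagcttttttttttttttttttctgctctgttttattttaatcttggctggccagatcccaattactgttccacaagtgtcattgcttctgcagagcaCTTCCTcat
Plek, chr11:17008719-17008968, minus strand: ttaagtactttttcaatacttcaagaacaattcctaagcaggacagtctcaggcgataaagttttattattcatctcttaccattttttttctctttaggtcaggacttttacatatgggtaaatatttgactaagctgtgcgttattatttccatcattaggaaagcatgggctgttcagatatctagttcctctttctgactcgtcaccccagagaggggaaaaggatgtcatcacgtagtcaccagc
Itga2b held 2 ETS words, 125 and 43 bases before the start. Gp1bb held an ETS word 90 bases before the start and a GATA word 22 bases before it, the only GATA match among the 5 genes. Pf4 had an ETS word 9 bases before the start, Gp9 one at 16 bases, and the Plek window held none of the words. The Gp9 window ends at 87778069, short of the deposited gene start of 87778136, so its 16 bases are counted from the RefSeq start. These matches are letters in a sequence and were not measured as binding.

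Each library held between 12960704 and 19226963 counts. A count of 0, read as up to 3 counts, would allow 0.156 to 0.231 CPM on the unadjusted totals. Levels are given as CPM, counts scaled to the library size after TMM adjustment, and every one of the 6 genes lay far above that limit in every library. Stem cell markers were present, with Kit at 1633 ± 247 CPM in old vehicle and 1326 ± 260 in young vehicle (SD, n = 4 each). Procr was at 228 ± 33.7 and 120 ± 38.8 CPM in the same groups. Markers of other cells differed between the dates. In date 2 against date 1, 10 of 11 neutrophil and myeloid genes, 9 of 10 erythroid genes and 6 of 6 mast cell and basophil genes rose in vehicle, and 9 of 10 stem cell genes fell. Of the other lists, 7 of 7 T and NK cell genes, 4 of 6 monocyte genes and 1 of 4 tested B cell genes rose. Of 5 tested endothelial genes, 1 fell. These are counts at an edgeR adjusted p under 0.05, which 11.0% of all genes passed in either direction. The 11 neutrophil and myeloid genes summed to 2061 to 2195 CPM in old vehicle libraries of date 2 and 3335 to 4561 in young ones, against 263 to 304 and 129 to 161 on date 1. Of these genes, 1 was at 0 in both old vehicle libraries of date 1. The 10 erythroid genes summed to 2233 to 2315 CPM in old and 3530 to 3991 in young vehicle libraries of date 2, and to 1773 to 2033 and 1773 to 1967 on date 1. Hence on date 2, but not on date 1, the old libraries had lower erythroid and myeloid sums than the young ones. The date 1 sums came largely from 1 gene each. Over both dates, Prtn3 (myeloid) was at 257 to 302 CPM in old vehicle and 114 to 208 in young vehicle. Car2 (erythroid) was at 1623 to 1966 and 1699 to 2047 CPM. On date 1 the myeloid list had a median log2 fold change of -0.77 (old over young, vehicle), against 0 over all genes. Of its 11 genes, 1 was called higher (3.24% of all genes) and 1 lower. In bulk RNA, fewer cells of a type and less RNA per cell cannot be told apart.

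**Figure D1:**
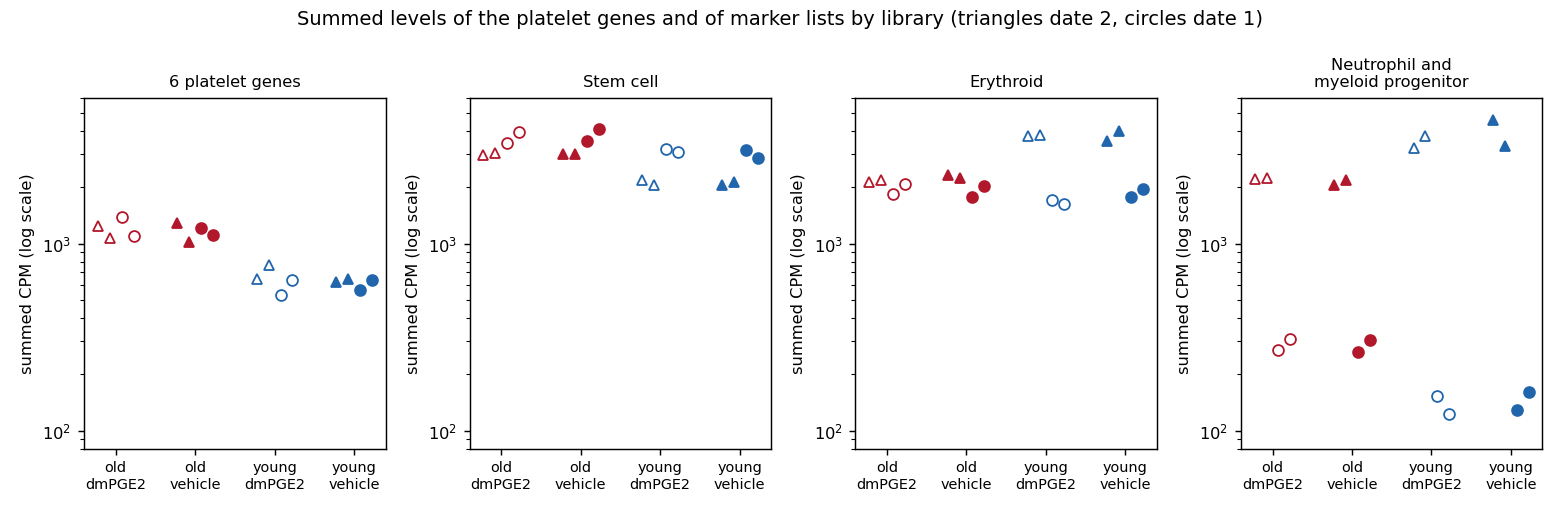
Summed CPM (log scale) of the 6 platelet genes, the 10 stem cell genes, the 10 erythroid genes and the 11 neutrophil and myeloid genes in each library, by group, with triangles for date 2 and circles for date 1. The 6 platelet genes summed to 1018 to 1291 CPM in old vehicle and 564 to 643 in young vehicle, without a gap between the dates, while the myeloid sum was far higher in every date 2 library.

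In vehicle, 3 of the 6 genes were higher in old than in young stem cells by the quasi-likelihood test of edgeR (Benjamini-Hochberg adjusted p under 0.05 over 13369 genes), and none was lower. These 3 were Itgb3 (3.57-fold), Plek (1.98-fold) and Gp1bb (1.70-fold), and 8.47% of all genes tested were called higher in this comparison. In the same 3 genes every old vehicle library lay above every young one, a separation seen upwards in 9.56% of all genes. All 6 estimates were above 0, and 4 of 6 had an unadjusted p under 0.05, as did 4197 of the 13369 genes.

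The integrin subunits differed in how far they moved. Itgb3 (integrin beta 3; mm10 chromosome 11, plus strand, 104608000 to 104670471) was at 388, 483, 415 and 309.6 CPM in old vehicle libraries of mice 479, 480, 485 and 486. In young vehicle libraries of mice 477, 478, 483 and 484 it was at 109.4, 92.4, 112 and 127 CPM. The lowest old library lay far above the highest young one. Means were 399 ± 71.8 CPM in old and 110.2 ± 14.1 CPM in young vehicle (SD, n = 4 each), a log2 fold change of 1.83 ± 0.14 (SE) with an adjusted p of 3.2e-05. Itga2b (integrin alpha 2b, CD41; chromosome 11, minus strand, 102453297 to 102469883) is the partner that Itgb3 pairs with on platelets. Its old vehicle levels were 330.1, 224.2, 396 and 276 CPM, against 192, 220.4, 205 and 262 CPM in young vehicle, in the same order of mice. The groups overlapped, since old mouse 480 lay below young mouse 484. The log2 fold change of Itga2b was 0.45 ± 0.14 (SE, approximate 95% interval 0.09 to 0.82) with an adjusted p of 0.0501, just short of the threshold. Itga2b passed with the DESeq2 size factors in edgeR (adjusted p 0.0482), with DESeq2 (0.00763), and without mouse 480 (0.0228) or mouse 486 (0.0315). Per length, the level of Itgb3 was 0.818 ± 0.311 of that of Itga2b in old vehicle (0.623 to 1.28) and 0.300 ± 0.0401 in young vehicle (0.250 to 0.339), so these ranges did not overlap (SD, n = 4 each).

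Gp1bb and Gp9 encode the beta chain and the IX chain of the receptor that tethers platelets to von Willebrand factor. Gp1bb (chromosome 16, minus strand, 18620319 to 18622403) was at 26.1, 20.9, 24.2 and 18.8 CPM in old vehicle, against 12.4, 13.4, 9.47 and 16.9 CPM in young vehicle. All old libraries lay above all young ones, with means of 22.5 ± 3.29 and 13.02 ± 3.05 CPM (SD, n = 4 each). The log2 fold change was 0.77 ± 0.21 (SE) with an adjusted p of 0.0266. The call was lost when any of mice 477, 478, 479, 480, 483 or 485 was left out (adjusted p 0.0531 to 0.0845) and without a term for date (0.0534), and it held without mouse 484 or 486. In GENCODE M21 Gp1bb overlaps Sept5 on the same strand, so reads could be shared between them. Sept5 itself averaged 5.78 ± 1.94 CPM in old and 2.61 ± 0.867 CPM in young vehicle (SD, n = 4 each), with an edgeR adjusted p of 0.0875. Gp9 (chromosome 6, plus strand, 87778136 to 87779762) was at 42.2, 41.2, 39.4 and 46.3 CPM in old vehicle and 34.6, 44.7, 37.8 and 23.0 CPM in young vehicle. Here the young mouse 478 lay above 3 of the old mice, and the log2 fold change of 0.26 ± 0.17 (SE, interval -0.19 to 0.70) had an adjusted p of 0.345.

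Pf4 and Plek stand for the granules and for signaling inside the platelet. Pf4 (platelet factor 4; chromosome 5, plus strand, 90772435 to 90773383) was at 117, 57.0, 106 and 112 CPM in old vehicle and 75.3, 124, 88.7 and 85.8 CPM in young vehicle. The lowest value belonged to an old mouse and the highest to a young one. Its log2 fold change was 0.04 ± 0.23 (SE, interval -0.54 to 0.62, adjusted p 0.931), an interval that still allows a change in either direction. Plek (pleckstrin; chromosome 11, minus strand, 16971206 to 17008718) was at 309, 287, 309 and 257 CPM in old vehicle and 141, 141, 169 and 128 CPM in young vehicle. Old and young libraries were well apart, with means of 290.4 ± 24.9 and 145 ± 17.6 CPM (SD, n = 4 each) and a log2 fold change of 0.98 ± 0.10 (SE, adjusted p 0.000153).

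**Figure D2:**
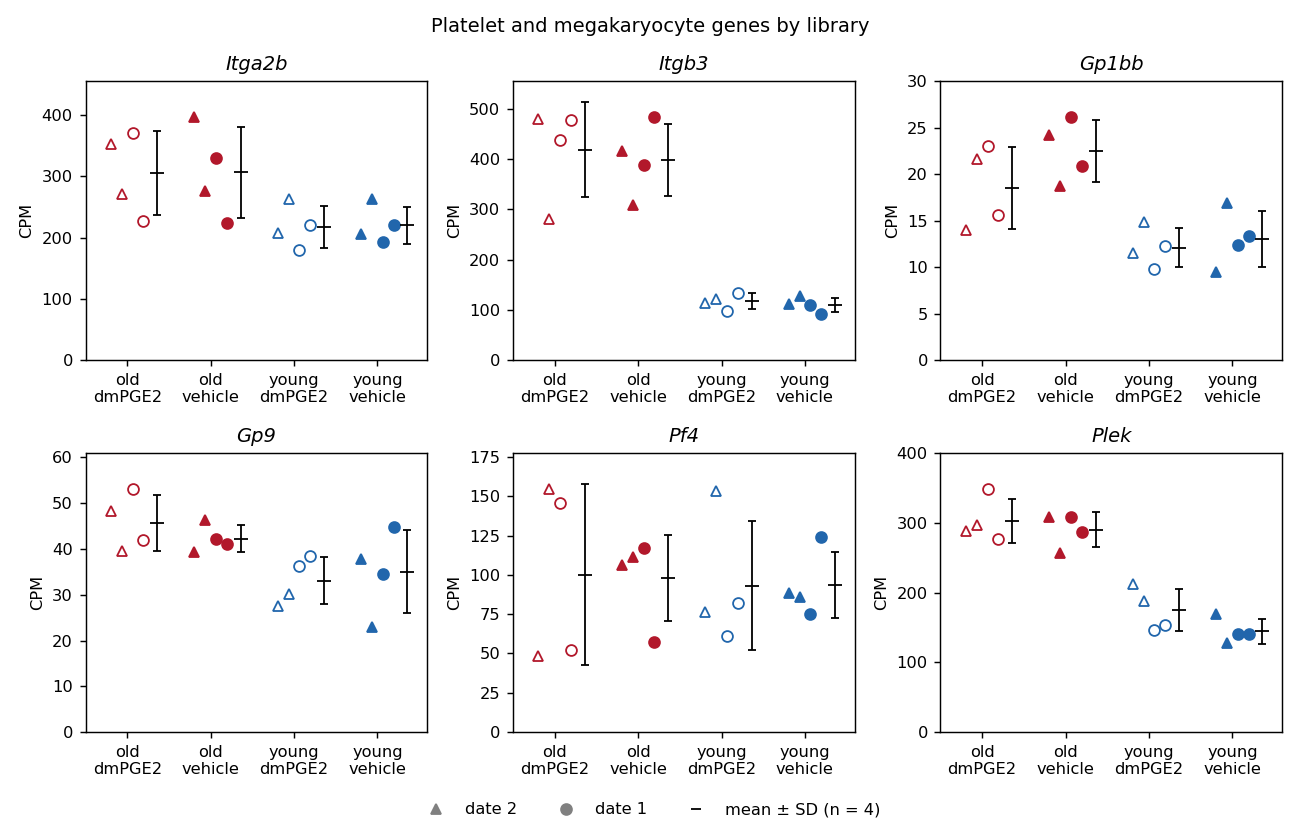
CPM of each of the 6 genes in every library by group (open symbols dmPGE2, filled vehicle; red old, blue young), with triangles for date 2, circles for date 1 and the mean ± SD of 4 libraries in black. Old libraries stand clear of young ones for Itgb3 and Plek in both arms, and for Pf4 the groups overlap throughout.

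The dmPGE2 libraries of the same mice gave the age comparison again, in cells of the same animals and so not as an independent repeat. Again 3 of 6 genes were called higher, against 7.85% of the 13279 genes tested. Itgb3 was at 437, 478, 480.3 and 281 CPM in old dmPGE2 libraries (mice 479, 480, 485 and 486), against 97.3, 134, 114 and 122 CPM in young ones (mice 477, 478, 483 and 484). Plek was at 348, 277, 289 and 298 CPM in old dmPGE2 and 146.5, 154, 213 and 188 CPM in young dmPGE2. The groups were again apart for both genes, with log2 fold changes of 1.83 ± 0.16 (SE, adjusted p 7.6e-05) for Itgb3 and 0.79 ± 0.11 (SE, adjusted p 0.000981) for Plek in edgeR. The third gene called was now Gp9, at 53.01, 41.9, 48.4 and 39.6 CPM in old dmPGE2 and 36.2, 38.4, 27.6 and 30.1 CPM in young dmPGE2. Its log2 fold change was 0.47 ± 0.13 (SE) with an adjusted p of 0.0329. The Gp9 call was lost without any of mice 477, 478, 479, 483, 484 or 485 (adjusted p 0.0653 to 0.103) and without a term for date (0.110). Itgb3, Gp9 and Plek were the genes whose old and young dmPGE2 libraries did not overlap, a separation upwards that 8.79% of all genes showed.

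Gp1bb, called in vehicle, was not called in the dmPGE2 libraries. It was at 23.0, 15.6, 14.0 and 21.6 CPM in old dmPGE2 and 9.82, 12.2, 11.5 and 14.8 CPM in young dmPGE2, so that old mouse 485 lay below young mouse 484. The log2 fold change was 0.61 ± 0.22 (SE, adjusted p 0.0871), and it passed without mouse 485 (0.0320). In the same libraries Sept5 was called, at 6.69 ± 2.03 CPM in old and 2.26 ± 1.44 CPM in young (SD, n = 4 each, adjusted p 0.0248). Itga2b was at 371, 227, 353 and 271 CPM in old dmPGE2 and 179.7, 220.3, 207 and 263 CPM in young dmPGE2. Its log2 fold change was 0.49 ± 0.15 (SE, adjusted p 0.0588), and it passed in DESeq2 (0.0105) and without mouse 480 (0.0290) or 486 (0.0326). Pf4 spread from 48.6 to 154 CPM in old and from 60.8 to 153 CPM in young dmPGE2 libraries, with a log2 fold change of 0.14 ± 0.47 (SE, interval -1.06 to 1.34). Whether the age difference of a gene changed with dmPGE2 was tested directly and is given below.

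Within each date, where 2 old mice stood against 2 young ones, Itgb3 and Plek were the genes called, on both dates and in both arms. In vehicle, 2 of 6 genes were called higher on date 2 (4.43% of 14115 genes) and 2 of 6 on date 1 (3.24%). For Itgb3 the log2 fold change in vehicle was 1.59 ± 0.16 (SE, adjusted p 0.00078) on date 2 and 2.09 ± 0.16 (SE, adjusted p 0.000254) on date 1. For Plek it was 0.92 ± 0.14 (SE, adjusted p 0.00562) on date 2 and 1.07 ± 0.14 (SE, adjusted p 0.00299) on date 1. On date 1 the vehicle sums of old and young libraries overlapped for the erythroid genes but not for the myeloid genes (given above) or the stem cell genes, which summed to 3552 to 4100 CPM in old and 2857 to 3158 CPM in young. The myeloid sum lay higher in old libraries and was largely Prtn3, while the median log2 fold change of the 11 myeloid genes was -0.77 there. The part of these sums in the age differences was not tested. In the dmPGE2 libraries Itgb3 had 1.69 ± 0.23 (SE, adjusted p 0.0037) on date 2 and 1.96 ± 0.23 (SE, adjusted p 0.00224) on date 1, with 4.55% and 3.24% of 14029 genes called higher. Plek had 0.55 ± 0.12 (SE, adjusted p 0.0223) on date 2 and 1.04 ± 0.12 (SE, adjusted p 0.00175) on date 1. The Plek call on date 2 in dmPGE2 libraries was lost without mouse 483 (adjusted p 0.0540) or 484 (0.118) and with date 2 fitted alone (0.0665).

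The other 4 genes were not called within a date in edgeR. Itga2b had vehicle log2 fold changes of 0.51 ± 0.21 (SE) on date 2 and 0.41 ± 0.21 on date 1, so its estimates were close on both dates. Gp1bb had 0.70 ± 0.30 on date 2 and 0.85 ± 0.30 on date 1, and on date 1 it passed when that date was fitted alone (adjusted p 0.0468 in vehicle and 0.0403 in dmPGE2 libraries). Gp9 had 0.48 ± 0.24 on date 2 and 0.06 ± 0.24 on date 1 in vehicle. Pf4 had 0.31 ± 0.30 on date 2 and -0.21 ± 0.30 on date 1, the only estimate among the 6 in vehicle that lay below 0. In the dmPGE2 libraries the signs of the Pf4 estimates were the other way round, at -0.18 ± 0.65 on date 2 and 0.45 ± 0.65 on date 1. Gp9 in dmPGE2 libraries had 0.60 ± 0.18 on date 2 (adjusted p 0.0718, and 0.0412 in DESeq2 or 0.0296 without mouse 486) and 0.33 ± 0.17 on date 1.

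None of the 6 age differences was called as different between the dates in edgeR, DESeq2 or limma-voom. In vehicle, 0% of 14115 genes were called in edgeR for this difference (827 genes had an unadjusted p under 0.05, and DESeq2 called 47), and 1 of the 6 genes had an unadjusted p under 0.05. That gene was Itgb3, whose age difference was -0.50 ± 0.22 (SE, date 2 minus date 1, adjusted p 0.836). In the dmPGE2 libraries 0.0356% of 14029 genes were called in edgeR (5 genes, and 119 in DESeq2), and 1060 had an unadjusted p under 0.05. The 1 of 6 with such a p was Plek, at -0.49 ± 0.16 (SE, adjusted p 0.511). With 2 mice of each age per date, the intervals of these differences were wide, reaching for Pf4 in vehicle from -0.66 to 1.71.

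**Figure D3:**
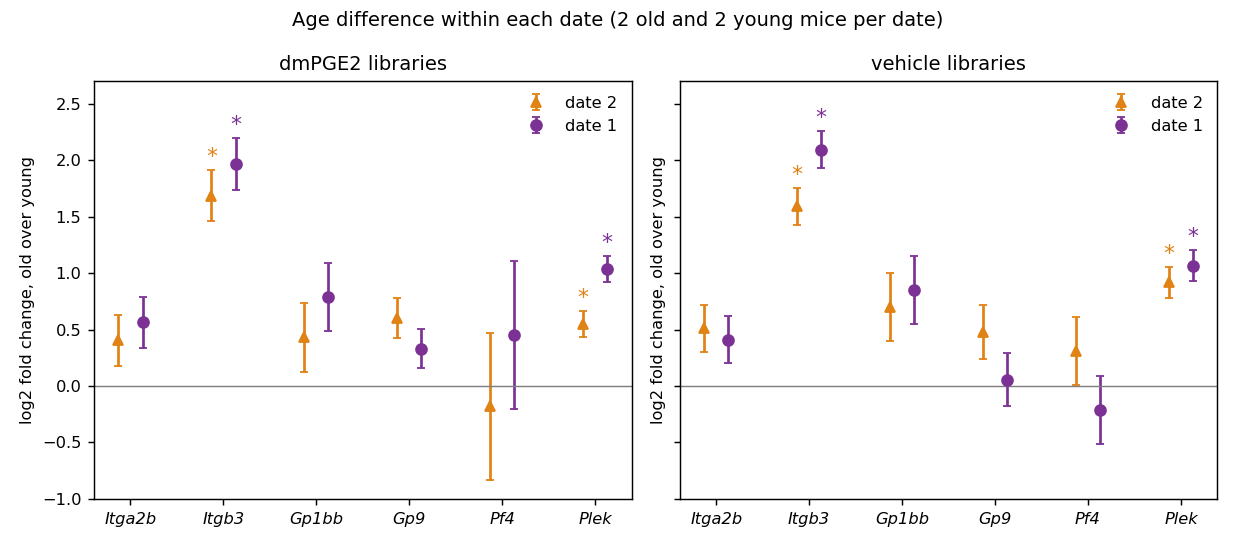
log2 fold change of old over young mice (points) with its SE (bars) for each of the 6 genes, on date 2 (triangles) and date 1 (circles), in dmPGE2 libraries (left) and vehicle libraries (right). Stars mark an adjusted p under 0.05 in edgeR. Stars stand over Itgb3 and Plek on both dates in both arms.

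The levels of the 6 genes themselves did not pass the test between the dates. In date 2 against date 1, 0 of 6 were called in either arm by edgeR, DESeq2 or limma-voom. In edgeR, 11.0% of all genes in vehicle and 11.7% in dmPGE2 libraries were called. An unadjusted p under 0.05 in edgeR was seen for 0 of 6 in either arm. It was seen for 3371 of 13369 genes in vehicle and 3482 of 13279 in dmPGE2 libraries. In vehicle the log2 fold changes of date 2 over date 1 ran from -0.17 for Gp9 to 0.23 for Itga2b. For Itgb3 the means of old vehicle libraries were 363 CPM (date 2) and 436 CPM (date 1), and those of young ones 119 and 101 CPM. For Pf4 the means of old vehicle libraries were 109 CPM (date 2) and 86.9 CPM (date 1), and those of young ones 87.2 and 99.6 CPM. The intervals of the date difference (log2, vehicle) were -0.36 to 0.32 for Itgb3, -0.25 to 0.25 for Plek and -0.14 to 0.59 for Itga2b. They were wider for Gp1bb (-0.58 to 0.47), Gp9 (-0.62 to 0.27) and Pf4 (-0.52 to 0.64). The stem cell list had a median of -0.47, which lies within the intervals of Gp1bb, Gp9 and Pf4, and the myeloid list one of 8.12.

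The 6 genes belong to a list of 61 genes of platelet receptors, granules, signaling and transcription factors, of which 58 could be tested between the ages in vehicle. In old against young vehicle, 18 rose and 1 fell (8.47% and 8.86% of all genes), with a median log2 fold change of 0.26, against -0.00 over all genes. Without the 6 genes, 15 of 52 rose and 1 fell, with a median of 0.25. Rises were spread over the groups, with 6 of 19 receptors, 4 of 13 granule and secreted proteins, 4 of 15 signaling and cytoskeletal proteins and 4 of 11 transcription factors. Some rises exceeded that of Itgb3. Selp, encoding P-selectin, an adhesion protein of platelet granules and endothelium, averaged 448 ± 81.6 CPM in old and 32.0 ± 15.0 CPM in young vehicle (14.2-fold). Clu, encoding the secreted chaperone clusterin, averaged 219 ± 73.0 CPM in old and 29.7 ± 7.82 CPM in young vehicle (7.38-fold). Vwf, encoding von Willebrand factor, averaged 634 ± 157 CPM in old and 146 ± 50.3 CPM in young vehicle (4.45-fold). Old and young vehicle libraries did not overlap for any of these 3 genes.

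Smaller rises in the list were those of Mylk, encoding myosin light chain kinase (log2 1.32 ± 0.17), Mmrn1, encoding the granule protein multimerin 1 (0.96 ± 0.14), Esam, an adhesion molecule (0.47 ± 0.06), and Bin2 (0.35 ± 0.06). Among transcription factors Mef2c (0.73 ± 0.09) and Gata2 (0.42 ± 0.08) rose, and Gata2 is also used by stem cells and mast cells. Zyx, encoding the focal adhesion protein zyxin, fell by 0.29 ± 0.07 on the log2 scale. Gata1, the main factor of megakaryocytes and red cells, averaged 28.0 ± 15.9 CPM in old and 51.5 ± 22.6 CPM in young vehicle (-0.84 ± 0.42, adjusted p 0.210). Several genes of the list are also used by stem cells or endothelium, and 8 of 10 stem cell markers rose in old vehicle as well. In old against young dmPGE2 libraries, 20 of 59 genes of the list rose (7.85% of all genes) and 0 fell, with a median log2 fold change of 0.24, against -0.01 over all genes.

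Other genes of the list differed between the dates. In vehicle, 7 of 58 genes were higher and 8 lower on date 2 than on date 1, against 11.0% of all genes called in either direction. F13a1, encoding a chain of coagulation factor XIII that monocytes also make, was at 43.6 to 67.6 CPM in old and 111 to 114 CPM in young vehicle libraries of date 2, against 0.918 to 1.48 and 0.161 to 1.09 CPM on date 1. Thbs1 (thrombospondin 1, log2 3.68 ± 0.32), Cd36 (2.88 ± 0.26), F5 (coagulation factor V, 2.43 ± 0.20) and Rasgrp2, an activator of Rap1 (0.77 ± 0.09), were also higher on date 2. Lower on date 2 were the thromboxane receptor Tbxa2r (-0.70 ± 0.14) and the enzymes that make its ligand, Tbxas1 (-0.38 ± 0.09) and Ptgs1 (-0.29 ± 0.06), with Esam (-0.45 ± 0.06). The transcription factors Gfi1b (-0.44 ± 0.11), Nfe2 (-0.40 ± 0.07) and Meis1 (-0.30 ± 0.07), which stem cells also carry, were lower on date 2 too. Vwf (-0.55 ± 0.19, adjusted p 0.105) and Selp (-0.54 ± 0.23, adjusted p 0.178) were not called between the dates. Between the ages, 19 of 60 genes of the list were called higher on date 2 (4.43% of all genes), and 11 higher (3.24% of all genes) and 1 lower on date 1. The myeloid, erythroid and mast cell sums moved with date beside these genes, and their part in the results was not tested.

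**Figure D4:**
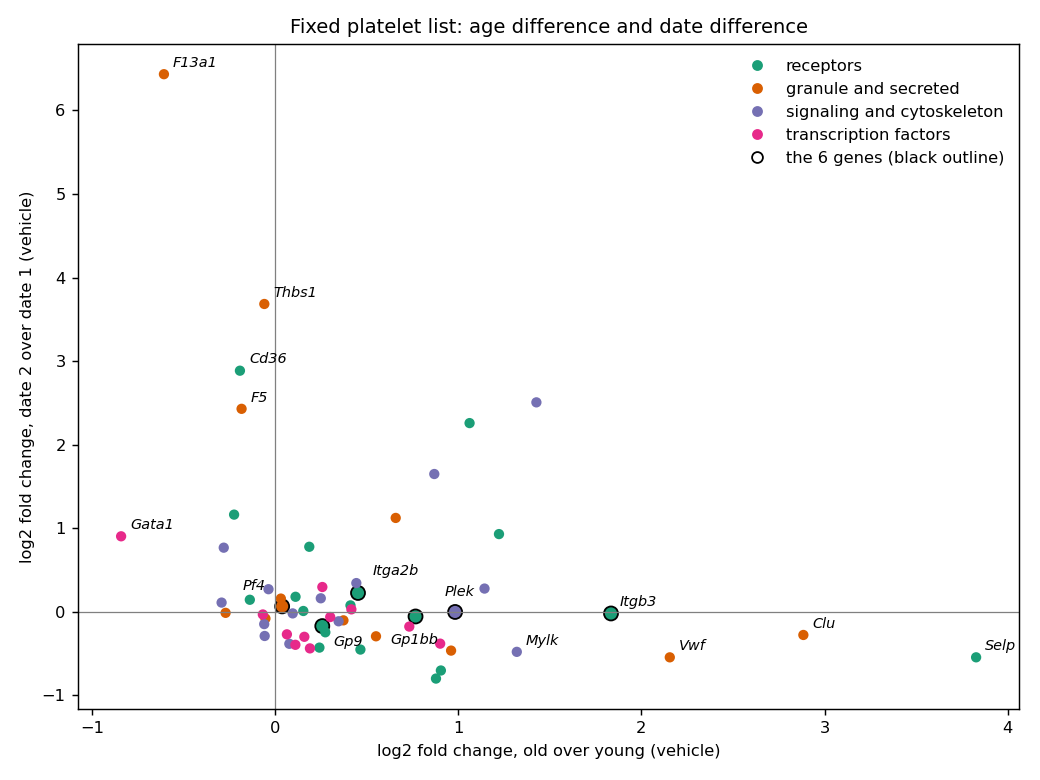
Each of the 58 tested genes of the platelet list as a point, with the log2 fold change of old over young vehicle libraries on the horizontal axis and that of date 2 over date 1 on the vertical axis. Colors give the role group, and the 6 genes have a black outline. The 6 genes lie between -0.17 and 0.23 on the date axis, while F13a1 reaches 6.43 there and Selp reaches 3.83 on the age axis.

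A pulse of dmPGE2 did not move any of the 6 genes past the threshold. In all 8 mice, with mouse as a block, 0 of 6 were called by edgeR, DESeq2 or limma-voom. In edgeR, 0.610% of 13942 genes were called. An unadjusted p under 0.05 in edgeR was seen for 1 of 6, and for 1749 of the 13942 genes. Itga2b was the most tightly bounded, with a log2 fold change of -0.01 ± 0.04 (SE, interval -0.11 to 0.10). Itgb3 had 0.08 ± 0.07 (interval -0.09 to 0.24), Gp9 had 0.03 ± 0.10 (interval -0.22 to 0.28) and Gp1bb had -0.19 ± 0.13 (interval -0.51 to 0.13). Pf4 had the widest interval, at -0.09 ± 0.21 (interval -0.60 to 0.43). Plek, the gene with the low unadjusted p, had 0.17 ± 0.06 (interval 0.03 to 0.31, adjusted p 0.248). Its dmPGE2 level was above its vehicle level in 6 of 8 mice.

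The test of whether the response to dmPGE2 differed between old and young mice called 0% of 13942 genes in edgeR (955 at an unadjusted p under 0.05, 14 called in DESeq2), with 0 of the 6 genes called in edgeR, DESeq2 or limma-voom or at an unadjusted p under 0.05. Plek had the largest such difference in size over its error, at -0.20 ± 0.12 (SE, old minus young, adjusted p 0.778), with responses of 0.07 ± 0.08 in old and 0.27 ± 0.08 in young mice (adjusted p 0.910 and 0.243). In old mice alone, 0 of 6 genes were called or had an unadjusted p under 0.05. Of 13942 genes 1096 had such a p in edgeR, and 0% were called there (114 genes in DESeq2). In young mice alone, 0 of 6 were called and 1 of 6, Plek, had an unadjusted p under 0.05. So did 1785 of all genes in edgeR, with 0% called there and 269 genes called in DESeq2. By date, 0 of 6 genes were called by edgeR, DESeq2 or limma-voom on date 2 (0.387% of all genes in edgeR) and on date 1 (2.93%). An unadjusted p under 0.05 was seen for 1 of 6 on date 2, against 1203 of 13942 genes. On date 1 it was seen for 0 of 6, against 1912 genes. For the difference between the dates 0 of 6 were called as well (1.08% of all genes). There 0 of 6 had an unadjusted p under 0.05, against 1348 of all genes.

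Pf4 stood out among the 6 for the spread between the libraries of one mouse. In mouse 485 (old) it was at 48.6 CPM with dmPGE2 and 106 CPM with vehicle, and in mouse 484 (young) at 153 CPM with dmPGE2 and 85.8 CPM with vehicle. The differences of the 8 mice ran from -1.13 to 0.84 on the log2 scale, with 3 of 8 above 0 and an SD of 0.625. Of 11198 genes with a mean log2 CPM of at least 2, 92.1% had a smaller SD of these differences than Pf4, and the median gene had 0.252. The genes ranked were not matched for level. Itga2b, at an SD of 0.0976, lay at the other end, with 3.75% of genes below it. Across the 8 mice the Pearson r of the difference in Pf4 with that in each other gene was 0.753 for Plek, 0.591 for Itga2b, 0.538 for Gp1bb, 0.159 for Gp9 and -0.501 for Itgb3. These are descriptions over points that share their libraries. The levels of Pf4 and Plek in the 8 vehicle libraries had an r of 0.0627, whereas those of Itgb3 and Plek, which both differ with age, had 0.957.

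**Figure D5:**
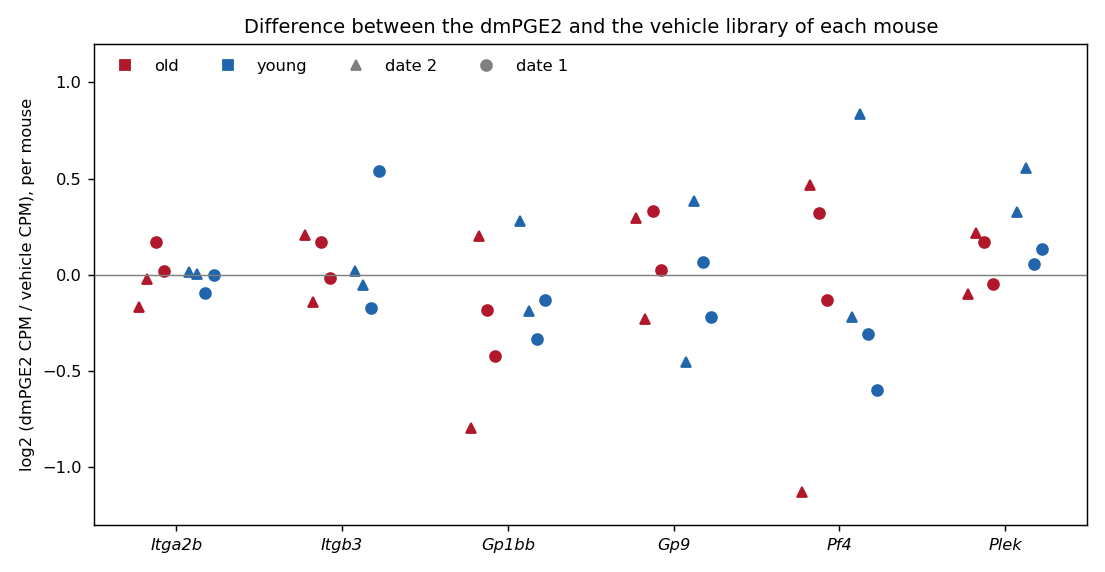
log2 of the dmPGE2 level over the vehicle level for each mouse and each of the 6 genes, with old mice in red on the left and young mice in blue on the right of each gene, triangles for date 2 and circles for date 1. Points of Itga2b lie within -0.17 to 0.17, and those of Pf4 reach from -1.13 to 0.84.

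Set against each other per length, Pf4 had the highest level of the 6 in both ages. In old vehicle it averaged 167 ± 46.9 CPM per kb, followed by Itga2b at 89.2 ± 21.5, Plek at 70.5 ± 6.05, Itgb3 at 69.0 ± 12.4, Gp9 at 52.1 ± 3.62 and Gp1bb at 10.8 ± 1.58 (SD, n = 4). Of these neighbours, Itga2b, Plek and Itgb3 did not differ beyond their SDs. In young vehicle the order was Pf4 at 159 ± 36.0 CPM per kb, Itga2b at 64.0 ± 8.87, Gp9 at 43.2 ± 11.2, Plek at 35.1 ± 4.27, Itgb3 at 19.1 ± 2.44 and Gp1bb at 6.25 ± 1.46 (SD, n = 4). Gp9 and Plek were within their SDs of each other there. Gp9 was thus above Plek and Itgb3 in young stem cells and below both in old ones, by the means.

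The genes most like each of the 6 were taken from 10696 genes by Pearson r of log2 CPM over the 16 libraries after the mean of each date was removed. For Itgb3 they were Amotl2 (0.982), Ptprk (0.979) and Oxr1 (0.978), and for Plek Dock9 (0.954), Gbp2 (0.948) and Abhd17b (0.947). For Gp1bb they were Slco3a1 (0.932), Batf2 (0.922) and Irgm1 (0.918), for Gp9 Dennd2a (0.893), Zfp935 (0.883) and Morn2 (0.883), and for Itga2b Ifitm3 (0.864), Reep2 (0.858) and Mob3c (0.847). The closest to Pf4 had the lowest r of the 6 sets, at 0.805 for G6pc3, 0.793 for Oas1a and 0.781 for Spic. None of these genes is in the platelet list, but the 6 genes, all in that list, were left out of the 10696 ranked. The libraries come in pairs from 8 mice and in 2 age groups, which the points of such a correlation share.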

How the data were processed

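The authors deposited unnormalized read counts by gene for 16 libraries, with gene positions and lengths on mm10. Per the submitters' processing notes, mm10, Subread 1.5.1, featureCounts and STAR 2.5.2b were used, and strand and annotation were not given in any source used here. The table had 14829 genes and 2504 empty lines, and 0 columns were left unmatched. The mice are separate animals per the labels, and each gave a dmPGE2 and a vehicle library.

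The 6 genes, the lists and the tests were chosen with earlier results of these data known. Counts were tested with edgeR 4.0.16 in R 4.3.3 (TMM, filterByExpr, robust quasi-likelihood test) over all genes, with Benjamini-Hochberg adjustment and calls at an adjusted p under 0.05. Old was tested against young in each arm with a term for date (5 residual degrees of freedom), and by date with a group for each date and age (4). dmPGE2 was tested against vehicle with mouse as a block (6, or 4 by date). SE is the size of the log2 fold change divided by the root of its F statistic, and intervals use the t distribution on the residual degrees of freedom. The scripts were tested on simulated data. With group means subtracted, the pair of libraries from each mouse had r of 0.510 to 0.732, which became -0.00746 to 0.323 once date means were subtracted too. The block comes from the design, which splits each mouse's cells.

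Levels are CPM on TMM-scaled totals, and per kb by the gene length deposited by the authors. Totals of 12960704 to 19226963 counts give a floor of 0.156 to 0.231 CPM for 3 counts, and such limits cover counting error only. Named genes of the platelet list are Vwf, Selp and Gata1, plus up to 3 called genes of each role group with the smallest p, for age and for date in vehicle. Some genes that the rule would give are not reported here. Alternatives were DESeq2 1.42.0, limma-voom (limma 3.58.1), DESeq2 size factors, no filter, no robust dispersion, no date term or block, each date alone, and each mouse left out.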

Additional observations from a re-analysis of the deposited data

How the results depend on the processing

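Over all alternatives and comparisons, results of single genes among the 6 kept their side of the threshold in 1411 cases. They newly passed it in 12, lost it in 17 and reversed as a called value in 0. Among the 1411, the sign of an estimate that was not called was left out of account. That of Pf4 between the ages in dmPGE2 libraries ran from -0.29 to 0.46. Counts of called genes stayed within 1.5 times in 264 cases and moved in 4. Itgb3 was called between the ages under every alternative, and Plek under every one except those named for date 2 in dmPGE2 libraries. Leaving out 1 mouse gave 2 to 4 of the 6 genes called in vehicle and in dmPGE2 libraries, against 3 with all mice, and 16 to 22 (vehicle) and 17 to 28 (dmPGE2) genes of the platelet list, against 19 and 20. With no date term, the list had 13 genes called between the ages in dmPGE2 libraries in place of 20. In dmPGE2 libraries of date 2, 1 of the 6 genes was called between the ages when that date was fitted alone, and 1 to 3 with a mouse left out, against 2 in the fit of both dates. The cause was not tested. The pairing comes from the design: without the replicate block, 0 of the 6 genes were called for dmPGE2, as with it, and 0 of the 104 alternatives run for dmPGE2 called one. Among all genes, DESeq2 called over 1.5 times as many as edgeR for dmPGE2 in all mice (447 against 85, limma-voom 225), on date 2 (131 against 54) and between the dates (241 against 151), and between the ages within a date (vehicle 1586 against 991 on date 2 and 1370 against 838 on date 1, dmPGE2 libraries 1743 against 1042 and 1237 against 738). For the difference of the age effects between the dates it called 47 against 0 in vehicle and 119 against 5 in dmPGE2 libraries. With 4 mice a group, and 2 on each date, changes of Gp9 and Gp1bb of the size seen here sit at the limit of the test, and the spread of Pf4 leaves an age difference of up to 0.62 on the log2 scale in vehicle within its interval. For the 24 groups of 4 libraries checked for a library far from the others (6 genes, 4 groups), 0 were found by Dixon's test at its 95% level.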
